A study of Danio rerio with 96 samples.

Results

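The skeletal muscle contractile genes of the zebrafish larva are described here across 4 treatments and 4 ages. The set was given as 50 gene symbols and was matched by gene name to the deposited count table, in which 47 of the 50 symbols were found as 51 Ensembl gene IDs among 25907 genes. Each of the 96 libraries was made from the whole body of 1 larva of an albino line that carries the b4 allele of slc45a2 on both chromosomes, and this line was shared by all groups. XR larvae received 8 Gy of X-rays at 36 hpf (hours post-fertilization). FA+XR larvae were given 200 μM folic acid (FA) from 35 hpf and the same 8 Gy at 36 hpf. FA larvae were given only the 200 μM FA from 35 hpf, and Cont larvae were left untreated. Each group had 6 libraries at 36, 37, 60 and 84 hpf, of which the last 3 ages are 1, 24 and 48 h after irradiation. Whether larvae of 36 hpf were collected before the X-rays or after them is not stated in the sources used here. Each group was kept in its own well, so an effect of the well and an effect of the treatment cannot be told apart.

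In a muscle fibre, myosin thick filaments pull on actin thin filaments, and troponin and tropomyosin on the thin filament open or close the myosin binding sites as calcium rises and falls. Calcium leaves the sarcoplasmic reticulum through the ryanodine receptor, is bound in the cytosol of fast fibres by parvalbumin, and is returned by the SERCA pump, while creatine kinase keeps ATP available for the motor. Zebrafish axial muscle has a superficial layer of slow fibres that forms early and a deep mass of fast fibres, and both use their own isoforms of most of these proteins. By these isoforms, 28 of the 51 IDs were grouped as fast, 6 as slow and 17 as shared or of both fibre types.

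The symbols smyhc3, mylz3 and mylpfb were not found under their own names. Some copies share a human-style name in the name table, so that MYL1, MYL11 (for mylpfa), ACTA1, TNNT3, TTN, RYR1 and CASQ1 each stand for 2 IDs and TNNI2 for 6. These copies cannot be assigned to a symbol, so they are given with their IDs, and 1 of the MYL11 IDs may be mylpfb. The symbols myl1, ryr1b and casq1b were likewise each matched to 2 IDs. So 1 ID each of MYL1, RYR1 and CASQ1 may be a copy other than the symbol given. TNNC1 and TNNC2 stand for tnnc1b and tnnc2.2. Near-identical copies may also share reads, and their values are uncertain to that extent. The 96 libraries held between 243126 and 16470291 counts (median 3477936), and 13 of them fell short of 50% of the median for their age, of which 6 were of 37 hpf, 4 of 60 hpf and 3 of 84 hpf. A treatment test needed a mean count of 2.5 or more over the 24 libraries of an age, which kept 47, 48, 51 and 51 of the 51 IDs at 36, 37, 60 and 84 hpf. Tests between ages took this mean over all 96 libraries, which kept all 51 IDs. Levels are CPM, the count of a gene scaled to the library total with TMM factors taken over all 96 libraries. They are given as the lowest, median and highest library. Each treatment test used TMM factors of the 24 libraries of its age, so levels and treatment fold changes rest on different factors. CPM is not divided by gene length, so the order of 2 genes in CPM is an order of counts and not of transcripts. A member is called where the Benjamini-Hochberg adjusted p of edgeR's quasi-likelihood test, taken over all genes tested, is below 10%. Fold changes are on the log2 scale, and most carry a standard error (SE). The SE was derived from the fold change and the F statistic of its test and was not estimated separately.

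The members together took a larger share of all counts in irradiated larvae at 60 and 84 hpf. At 84 hpf the share was 11.5, 12.5 and 13.5% (lowest, median and highest library) in XR and 11.4, 11.9 and 12.4% in FA+XR, against 9.73, 10.2 and 10.7% in FA and 10.1, 10.5 and 10.7% in Cont. All 12 irradiated libraries lay above all 12 unirradiated libraries. At 60 hpf the share was 11.3, 11.7 and 12.6% in XR and 10.4, 10.9 and 11.3% in FA+XR, against 9.5, 10.2 and 10.9% in FA and 9.83, 9.91 and 10.3% in Cont. XR lay above Cont in every library at this age, whereas FA+XR and FA overlapped. At 37 hpf the group medians were 4.43% in XR, 4.01% in FA+XR, 4.28% in FA and 4.37% in Cont, with all 4 groups overlapping. At 36 hpf they were 4.83%, 4.48% and 4.83% in XR, FA+XR and FA and 3.33% in Cont, and all 4 groups again overlapped. The libraries of 36 hpf ran from 2.61 to 5.41% in XR, 2.76 to 5.27% in FA+XR, 2.82 to 5.76% in FA and 2.46 to 4.62% in Cont. These shares are a description of summed values and carry no test.

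**Figure D1:**
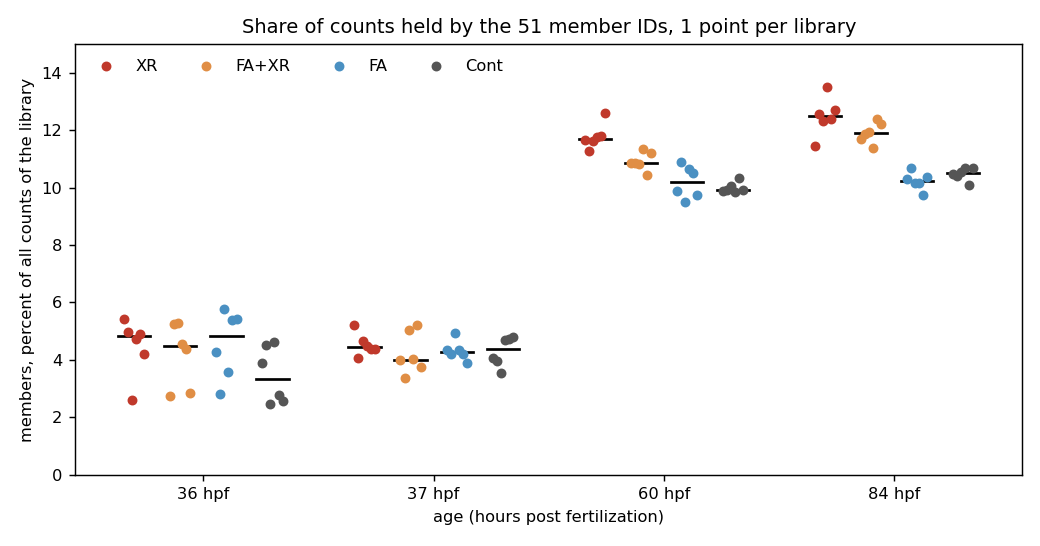
Share of all counts of a library held by the 51 member IDs, in percent, against age in hpf. Each point is 1 library, the bars are medians of 6, and at 84 hpf the XR and FA+XR points (11.4 to 13.5%) lie above all FA and Cont points (9.73 to 10.7%).

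The groups of 84 hpf were not separated in this way once TMM factors were applied. The summed CPM was 71494, 102006 and 119506 in XR and 86980.1, 95763 and 100695 in FA+XR, against 62594, 78904 and 87278 in FA and 75011, 86606 and 90212 in Cont, and these ranges overlapped. At 60 hpf the median summed CPM was 100021 in XR and 98490.4 in FA+XR, against 106113 in FA and 80917.2 in Cont, so that FA+XR lay above FA by share and below FA by CPM. At 84 hpf the lowest XR value came from the XR library with the fewest counts of its group, 700645, which was the lowest of the 6 for 43 of the 51 members. Because whole larvae were measured, a smaller amount of other tissue, more muscle fibres and more RNA per fibre cannot be told apart in any of the values.

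At 84 hpf, 48 h after irradiation, contractile genes were more often higher than lower in the irradiated larvae (XR and FA+XR) relative to the unirradiated larvae (FA and Cont). edgeR called 23 of the 51 members higher and 1 lower, where 1.83% of all genes tested were called higher and 2.49% lower. The median log2 fold change was 0.24 over the members and 0.01 over all genes. Of the members, 44 of the 51 fold changes were above 0, against 50.9% over all genes. Of the fast isoforms 16 of 28 were called higher, of the shared genes 6 of 17, and of the slow isoforms 1 of 6, with 1 slow isoform lower. The fast set and the slow set were not tested against each other. By role, 4 of 7 myosin heavy chains, 4 of 4 myosin light chains, 2 of 4 actins, 3 of 4 troponin T, 1 of 6 troponin I, 1 of 3 troponin C and 1 of 3 tropomyosins were called higher. The calls among the other roles were 1 of 7 scaffold proteins, 2 of 2 creatine kinases, 2 of 4 parvalbumins and 2 of 5 genes of the calcium pump, channel and store, and none of the 2 myosin-binding proteins. For every member the 12 irradiated and 12 unirradiated libraries overlapped, where 0.0682% of all genes were higher and 0.093% lower without overlap.

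**Figure D2:**
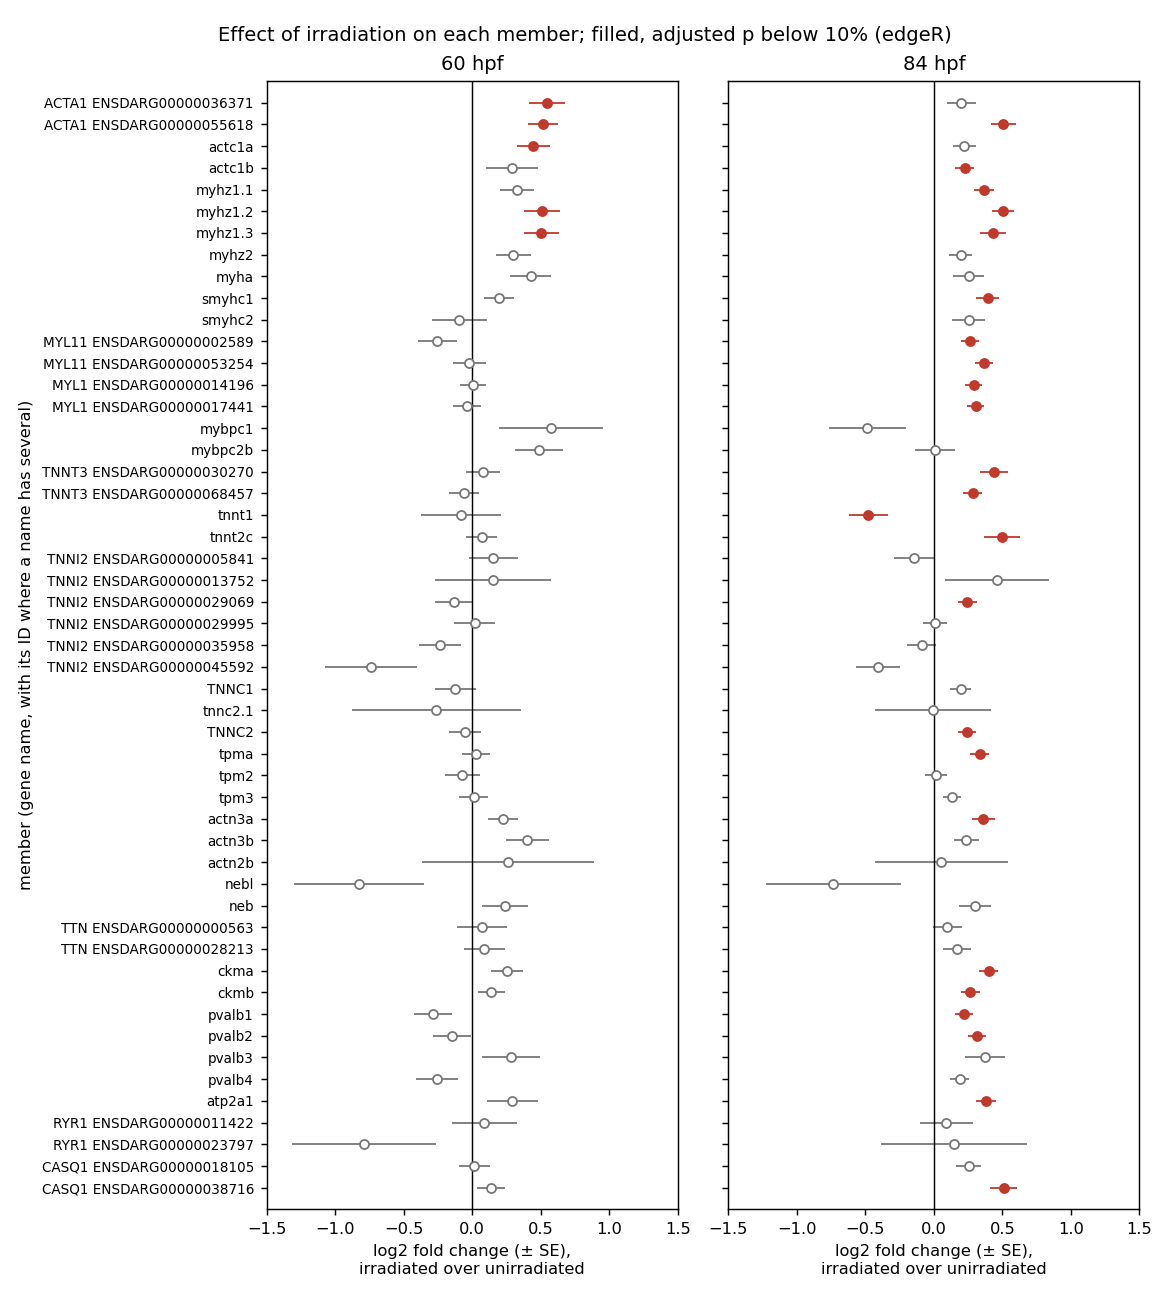
Log2 fold change of each member, irradiated over unirradiated, with its SE, at 60 hpf (left) and 84 hpf (right). Filled red points are members with an adjusted p below 10% in edgeR, 5 at 60 hpf and 24 at 84 hpf, and at 84 hpf most points lie right of 0.

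Among the thick filament genes, the fast myosin heavy chains of the myhz1 cluster, the motor proteins of fast fibres, were higher. The level of myhz1.2 was 1049.6, 1240.4 and 1564 CPM in the irradiated libraries, against 627, 914 and 1178 CPM in the unirradiated libraries. All 12 irradiated libraries were above the unirradiated median and 8 were above every unirradiated library (log2 fold change 0.50 ± 0.08 (SE), 1.42-fold, adjusted p = 4.53e-05, edgeR). The level of myhz1.1, the heavy chain with the most counts, was 2829.9, 3183 and 3886 CPM in the irradiated libraries, against 1865, 2492 and 3064 CPM in the unirradiated libraries. Here 6 irradiated libraries were above every unirradiated one (log2 fold change 0.37 ± 0.07 (SE), 1.29-fold, adjusted p = 0.00138). The fold change of myhz1.3 was 0.43 ± 0.10 (adjusted p = 0.00482), and that of the slow heavy chain smyhc1 was 0.39 ± 0.09 (adjusted p = 0.0034), with all 12 irradiated libraries above the unirradiated median for both. The remaining heavy chains myhz2, myha and smyhc2 had fold changes of 0.20, 0.25 and 0.25 and were not called.

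All 4 myosin light chain IDs, which stabilise the lever arm of myosin, were called higher. MYL11 (ENSDARG00000053254), a fast regulatory light chain, had 3443, 4874 and 5679 CPM in the irradiated libraries, against 2514, 3839 and 4222 CPM in the unirradiated libraries. The groups overlapped in few libraries, since 10 irradiated libraries exceeded every unirradiated one (log2 fold change 0.37 ± 0.07 (SE), 1.29-fold, adjusted p = 0.000361). MYL1 (ENSDARG00000017441), a fast essential light chain, had 4867, 6172 and 7535 CPM in the irradiated libraries, against 3802, 5138 and 5886 CPM in the unirradiated libraries. Here 9 of 12 exceeded every unirradiated library (log2 fold change 0.30 ± 0.06 (SE), 1.24-fold, adjusted p = 0.00133). The second MYL1 (ENSDARG00000014196) changed by 0.29 ± 0.06 (adjusted p = 0.00383) and the second MYL11 (ENSDARG00000002589) by 0.26 ± 0.07 (adjusted p = 0.0165). The myosin-binding proteins, which lie across the thick filament, were not called. Their fold changes were 0.01 ± 0.15 (adjusted p = 0.992) for the fast mybpc2b and -0.48 ± 0.28 (adjusted p = 0.518) for the slow mybpc1, whose highest library had 13.5 CPM.

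On the thin filament, the actin ACTA1 (ENSDARG00000055618) had 1012, 1410.5 and 1888 CPM in the irradiated libraries, against 591, 1005 and 1228 CPM in the unirradiated libraries. All 12 irradiated libraries were above the unirradiated median and 9 above every unirradiated library (log2 fold change 0.51 ± 0.09 (SE), 1.42-fold, adjusted p = 0.00023). The actin with the most counts, actc1b, had 9034, 13134 and 17877 CPM in the irradiated libraries, against 7773, 11656 and 12411 CPM in the unirradiated libraries. Its groups overlapped more, with 7 irradiated libraries above every unirradiated one, and its fold change was 0.23 ± 0.07 (adjusted p = 0.0742). The other actins had 0.20 ± 0.10 (adjusted p = 0.423) for ACTA1 (ENSDARG00000036371) and 0.22 ± 0.08 (adjusted p = 0.183) for actc1a, which were not called. The fast tropomyosin tpma, which lies along actin and covers the myosin sites, had 3462, 5047 and 5658 CPM in the irradiated libraries, against 2924, 4145 and 4727 CPM in the unirradiated libraries. Of the 12 irradiated libraries 9 were above every unirradiated one (log2 fold change 0.34 ± 0.07 (SE), 1.26-fold, adjusted p = 0.00222). The slow tpm3 had 0.13 ± 0.06 (adjusted p = 0.361) and tpm2 had 0.02 ± 0.08 (adjusted p = 0.97).

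Troponin T, the subunit that ties the troponin complex to tropomyosin, held members that changed in both directions. The fast TNNT3 (ENSDARG00000030270) changed by 0.44 ± 0.10 (adjusted p = 0.00777), the fast TNNT3 (ENSDARG00000068457) by 0.29 ± 0.07 (adjusted p = 0.0126) and tnnt2c, of the troponin T2 subfamily, by 0.50 ± 0.13 (adjusted p = 0.0243). The slow troponin T, tnnt1, was singled out after its value was seen, as the only member called lower. It had 8.5, 12.1 and 19.4 CPM in the irradiated libraries, against 12.9, 19 and 23.6 CPM in the unirradiated libraries, and 11 of the 12 irradiated libraries lay below the unirradiated median (log2 fold change -0.48 ± 0.14 (SE), 0.718-fold, adjusted p = 0.055). Of the troponin I IDs, whose product holds the filament off in the absence of calcium, TNNI2 (ENSDARG00000029069) was called higher at 0.24 ± 0.07 (adjusted p = 0.0398). The other 5 TNNI2 IDs ran from -0.41 to 0.46 and were not called. Of troponin C, the calcium sensor, the fast TNNC2 was called at 0.24 ± 0.07 (adjusted p = 0.0387), and TNNC1, matched to the slow tnnc1b, had 0.20 ± 0.08 (adjusted p = 0.204).

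Among the scaffold genes, actn3a, an alpha-actinin that anchors thin filaments at the Z-disc, was called at 0.36 ± 0.08 (adjusted p = 0.00695). Its level was 223, 273 and 347 CPM in the irradiated libraries, against 128, 227 and 276 CPM in the unirradiated libraries, and 5 of the 12 irradiated libraries exceeded every unirradiated one. The other scaffold IDs were not called. They are the other alpha-actinins, nebl, and nebulin (neb) and titin (TTN), the giant rulers of the thin filament and of the whole sarcomere. Their fold changes were 0.24 for actn3b, 0.30 for neb, 0.17 and 0.10 for the TTN IDs, 0.06 for actn2b and -0.73 for nebl, and over the 24 libraries the medians of actn2b and nebl were only 0.83 and 2.23 CPM.

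Both muscle creatine kinases were called higher. For ckma the values were 2602, 3582 and 3949.8 CPM in the irradiated libraries, against 2041, 2721 and 2932 CPM in the unirradiated libraries, and 11 of the 12 irradiated libraries exceeded every unirradiated one (log2 fold change 0.40 ± 0.07 (SE), 1.32-fold, adjusted p = 7.68e-05). For ckmb the fold change was 0.27 ± 0.07 (adjusted p = 0.0216). Of the genes that move calcium, atp2a1, the SERCA pump of fast fibres, had 1659.5, 2247 and 2495 CPM in the irradiated libraries, against 1332, 1636 and 2091 CPM in the unirradiated libraries. All 12 irradiated libraries were above the unirradiated median (log2 fold change 0.38 ± 0.07 (SE), 1.3-fold, adjusted p = 0.000764). CASQ1 (ENSDARG00000038716), a calsequestrin that binds calcium in the store, had 108, 139.6 and 172 CPM in the irradiated libraries, against 59.3, 99.9 and 123 CPM in the unirradiated libraries. All 12 irradiated libraries were again above the unirradiated median (log2 fold change 0.51 ± 0.10 (SE), 1.42-fold, adjusted p = 0.000632). The other CASQ1 had 0.25 ± 0.09 (adjusted p = 0.163), and the 2 RYR1 IDs, for the calcium release channel, had 0.09 and 0.15.

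Parvalbumins, small proteins that bind calcium and speed relaxation, were called in part. The level of pvalb2 was 15849, 22064 and 27901 CPM in the irradiated libraries, against 14043, 17617 and 22190.0 CPM in the unirradiated libraries, and 5 of 12 irradiated libraries exceeded every unirradiated one (log2 fold change 0.31 ± 0.07 (SE), 1.24-fold, adjusted p = 0.0034). The change of pvalb1 was 0.22 ± 0.07 (adjusted p = 0.0604), and those of pvalb4 and pvalb3 were 0.19 ± 0.07 (adjusted p = 0.169) and 0.37 ± 0.15 (adjusted p = 0.21). The 24 calls of this comparison became 22 to 29 when libraries were left out singly, with the most calls without the XR library of 700645 counts.

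**Figure D3:**
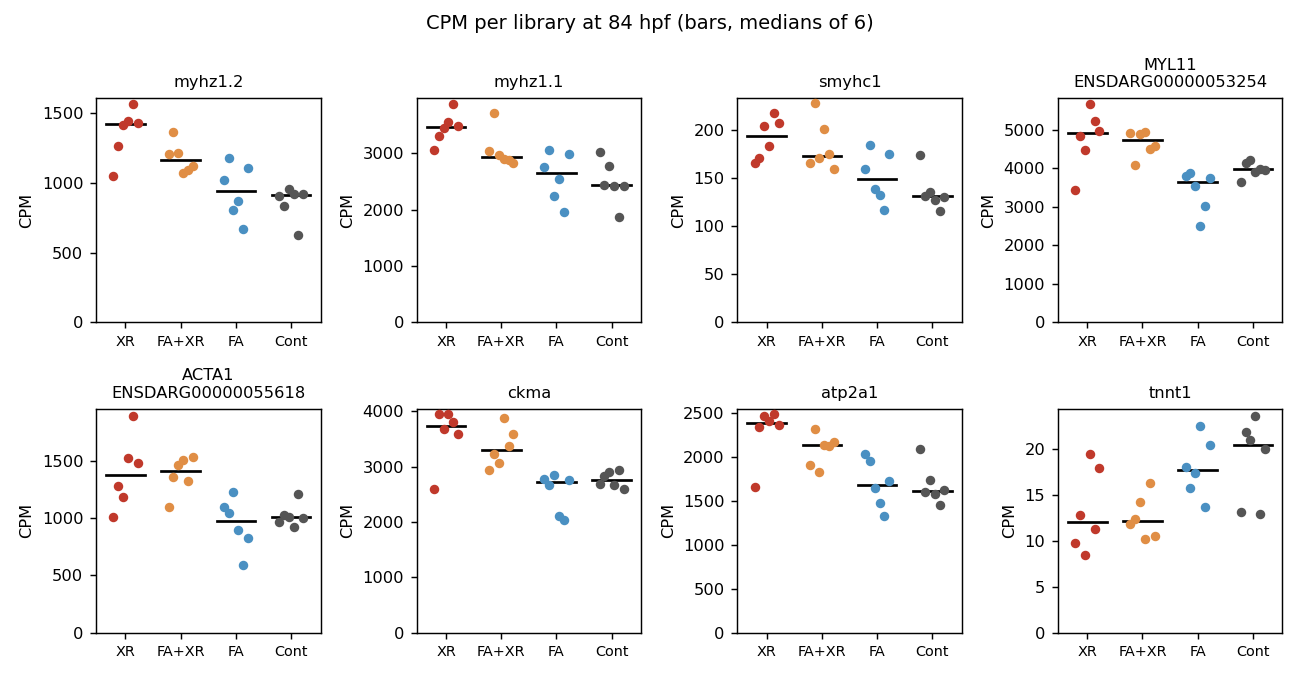
CPM of 8 members in each library at 84 hpf, by group, with the median of 6 as a bar and each axis starting at 0. The XR and FA+XR points of 7 members tend to lie above the FA and Cont points with overlap in each panel, and those of tnnt1 tend to lie below.

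Split by FA, irradiation gave 10 higher and 0 lower members in XR vs. Cont at 84 hpf, with 0.546% of all genes called higher and 1.15% lower. Those called were the heavy chains myhz1.2, myhz1.1, myhz1.3 and smyhc1, the pump atp2a1, ckma, CASQ1 (ENSDARG00000038716), actn3a, ACTA1 (ENSDARG00000055618) and neb. The level of myhz1.2 was 1049.6, 1422 and 1564 CPM in XR libraries, against 627, 914 and 956 CPM in Cont libraries. The groups did not overlap (log2 fold change 0.68 ± 0.11 (SE), 1.6-fold, adjusted p = 0.000246). The level of myhz1.1 was 3057, 3474 and 3886 CPM in XR libraries, against 1865, 2432 and 3018 CPM in Cont libraries, again without overlap (log2 fold change 0.49 ± 0.10 (SE), 1.41-fold, adjusted p = 0.00555). These were the 2 members of 51 without overlap in XR vs. Cont, where 0.36% of all genes were higher without overlap. The slow smyhc1 had 166, 194 and 217 CPM in XR libraries, against 115, 131 and 174 CPM in Cont libraries, and here the ranges overlapped (log2 fold change 0.52 ± 0.12 (SE), 1.44-fold, adjusted p = 0.0135; exact permutation test, two-sided, p = 0.00649).

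The fold changes of the other 7 members called in XR vs. Cont at 84 hpf were 0.47 ± 0.10 (adjusted p = 0.00988) for atp2a1, 0.60 ± 0.14 (adjusted p = 0.0129) for myhz1.3 and 0.40 ± 0.09 (adjusted p = 0.0162) for ckma. They were 0.54 ± 0.14 (adjusted p = 0.0298) for CASQ1 (ENSDARG00000038716), 0.45 ± 0.12 (adjusted p = 0.0465) for actn3a, 0.47 ± 0.13 (adjusted p = 0.0521) for ACTA1 (ENSDARG00000055618) and 0.58 ± 0.16 (adjusted p = 0.0753) for neb. Both neb, the thin filament ruler, and actn3a act in the frame that holds the filaments in register. Leaving out libraries singly gave 6 to 16 calls, with 6 without the Cont library of 4286073 counts and 16 without the XR library of 700645 counts. Without the low-depth libraries 22 members were called, all higher, but the share of all genes called in that fit was not counted.

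In FA+XR vs. FA at 84 hpf, 8 members were higher and 0 lower, with 0.49% of all genes called higher and 0.546% lower. These were both MYL1 IDs, MYL11 (ENSDARG00000053254), ckma, ACTA1 (ENSDARG00000055618), pvalb2, tpma and TNNT3 (ENSDARG00000030270). MYL11 (ENSDARG00000053254) had 4079.5, 4736 and 4962 CPM in FA+XR libraries, against 2514, 3649 and 3870.3 CPM in FA libraries. The groups did not overlap (log2 fold change 0.45 ± 0.09 (SE), 1.36-fold, adjusted p = 0.00775). The level of ckma was 2940.0, 3299 and 3873 CPM in FA+XR libraries, against 2041, 2716 and 2849 CPM in FA libraries, without overlap (log2 fold change 0.40 ± 0.09 (SE), 1.32-fold, adjusted p = 0.0224). Groups without overlap were found for 5 members, with 0.539% of all genes higher without overlap. The other 3 were tpma at 0.39 ± 0.10 (adjusted p = 0.0429), MYL1 (ENSDARG00000017441) at 0.35 ± 0.09 (adjusted p = 0.0303) and CASQ1 (ENSDARG00000038716) at 0.48 ± 0.14 (adjusted p = 0.112), the last of which was not called.

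The 4 further calls in FA+XR vs. FA at 84 hpf were ACTA1 (ENSDARG00000055618) at 0.54 ± 0.13 (adjusted p = 0.0226), pvalb2 at 0.40 ± 0.10 (adjusted p = 0.0254), TNNT3 (ENSDARG00000030270) at 0.56 ± 0.15 (adjusted p = 0.0585) and MYL1 (ENSDARG00000014196) at 0.32 ± 0.09 (adjusted p = 0.0995). Leaving out libraries singly gave 5 to 15 calls. The 5 were found without the FA library of 680281 or of 423265 counts or the FA+XR library of 3857260 or of 2984685 counts. The 15 were found without the XR library of 700645 counts, which is in neither group but was part of the same fit. Why the count rose was not tested. DESeq2 called 15 and RLE factors gave 13, with the share of all genes called in these fits not counted. The call of MYL1 (ENSDARG00000014196) was kept in 7 of the 24 fits that left out 1 library. It was lost at 5%, with no count minimum, with only the 12 libraries compared and without low-depth libraries. The call of TNNT3 (ENSDARG00000030270) was kept in 18 of the 24 fits and lost at 5% and without low-depth libraries.

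The lists called in the presence and in the absence of FA differ, but the difference itself was tested with the FA by XR interaction (the effect of X-rays under FA minus the effect without it), which called 0 of the 51 members and 0% of all genes. The unadjusted p was below 0.05 in 7.84% of the members and 3.97% of all genes, and DESeq2 also called 0 members. The members with the smallest p were neb, with fold changes of 0.02 in FA+XR vs. FA and 0.58 in XR vs. Cont and an interaction of -0.55 ± 0.23 (adjusted p = 0.998), and RYR1 (ENSDARG00000011422), with an interaction of -0.90 ± 0.39 (adjusted p = 0.998). In FA+XR vs. XR at 84 hpf 0 members and 0.0062% of all genes were called. An unadjusted p below 0.05 was found in 9.8% of the members and 3.65% of all genes. The smallest p values were those of TTN (ENSDARG00000028213), titin, at -0.40 ± 0.15 (adjusted p = 0.999), and neb at -0.40 ± 0.16 (adjusted p = 0.999). TTN (ENSDARG00000028213) had 68.8, 83.7 and 90 CPM in FA+XR libraries, against 90.8, 106 and 126 CPM in XR libraries and was the 1 member whose FA+XR libraries all lay below the XR libraries, where 0.0868% of all genes did so. For myhz1.2, the member with the smallest adjusted p under irradiation, the FA+XR and XR libraries overlapped, with a difference of -0.20 ± 0.11 (adjusted p = 0.999). In FA vs. Cont at 84 hpf 0 members and 0.0248% of all genes were called. The smallest p values were those of TNNI2 (ENSDARG00000045592) at -0.53 ± 0.23 (adjusted p = 0.933) and pvalb1 at -0.20 ± 0.09 (adjusted p = 0.933). A p that misses the threshold does not show equal levels.

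At 60 hpf, 24 h after irradiation, fewer members were called in irradiated vs. unirradiated larvae. They were 5 higher and 0 lower, with 0.686% of all genes called higher and 0.98% lower, and the median log2 fold change was 0.08 over the members and 0.02 over all genes. The called genes were 3 of 4 actins and 2 of 7 heavy chains. ACTA1 (ENSDARG00000055618) had 2206, 2806 and 3440.0 CPM in the irradiated libraries, against 1376, 1962 and 2740.4 CPM in the unirradiated libraries. All 12 irradiated libraries were above the unirradiated median and 7 above every unirradiated library (log2 fold change 0.52 ± 0.11 (SE), 1.43-fold, adjusted p = 0.00881). ACTA1 (ENSDARG00000036371) had 366, 498 and 589 CPM in the irradiated libraries, against 193, 359 and 452 CPM in the unirradiated libraries, with 8 irradiated libraries above every unirradiated one (log2 fold change 0.55 ± 0.13 (SE), 1.46-fold, adjusted p = 0.0287). The heavy chains changed by 0.50 ± 0.13 (adjusted p = 0.0323) for myhz1.3 and 0.51 ± 0.13 (adjusted p = 0.0483) for myhz1.2, and actc1a changed by 0.44 ± 0.12 (adjusted p = 0.0596). Without the low-depth libraries 3 members were called, and ACTA1 (ENSDARG00000036371) and actc1a were not among them. The call of myhz1.2 was lost without the 2 FA libraries of lowest TMM factor (adjusted p = 0.11), and that of actc1a was kept in 14 of the 24 fits that left out 1 library. For every member the 12 irradiated and 12 unirradiated libraries overlapped, where 0.098% of all genes were higher without overlap.

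In irradiated vs. unirradiated larvae, light chains, parvalbumins and troponins, of which members were called at 84 hpf, were not called at 60 hpf. The 4 light chains ran from -0.25 to 0.01 and the 4 parvalbumins from -0.28 to 0.28 on the log2 scale at 60 hpf. The unirradiated side held the 2 FA libraries of lowest TMM factor, which were high for parvalbumins. For pvalb2 the highest unirradiated library had 46006 CPM and the highest irradiated one 23591 CPM. In XR vs. Cont, which holds no FA library, 46 of the 51 members were above 0 and 0 were called. The effect of irradiation at 84 hpf less that at 60 hpf, tested in 1 fit of all 96 libraries, was called for 0 of the 51 members and for 0.14% of all genes, so no difference between the 2 ages was detected for a single member. Its median was 0.12 over the members and -0.02 over all genes.

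In XR vs. Cont at 60 hpf 0 members were called and 0.404% of all genes. The fold changes of 46 of the 51 members and of 49.5% of all genes were above 0, with a median of 0.20 over the members. An unadjusted p below 0.05 was found in 9.8% of the members and 6.15% of all genes. The smallest p values were those of ACTA1 (ENSDARG00000055618) at 0.59 ± 0.16 (adjusted p = 0.13) and ACTA1 (ENSDARG00000036371) at 0.55 ± 0.19 (adjusted p = 0.475). The 1 member without overlap was myhz1.2, with 796, 849 and 985 CPM in XR libraries, against 565, 658 and 758 CPM in Cont libraries, where 0.417% of all genes were higher without overlap. In FA+XR vs. FA at 60 hpf, 1 member was called higher and 1 lower, with 0.374% of all genes higher and 1.06% lower. The fast heavy chain myhz1.3 had 654, 759 and 868 CPM in FA+XR libraries, against 253, 487 and 588 CPM in FA libraries, without overlap (log2 fold change 0.73 ± 0.18 (SE), 1.66-fold, adjusted p = 0.0543), where 0.398% of all genes were higher without overlap. The parvalbumin pvalb1 had 8972, 10056 and 12741 CPM in FA+XR libraries, against 10370.0, 12796 and 26354 CPM in FA libraries (log2 fold change -0.68 ± 0.19 (SE), 0.626-fold, adjusted p = 0.096; exact permutation test, two-sided, p = 0.0216). Neither was called without the 2 FA libraries that stood apart in this group. In FA+XR vs. XR and in the interaction at 60 hpf, 0 members and 0% of all genes were called. The unadjusted p was below 0.05 in 0% of the members and 3.09% of all genes in FA+XR vs. XR. For the interaction it was below 0.05 in 19.6% of the members and 6.41% of all genes.

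FA alone was followed by 6 higher and 0 lower members in FA vs. Cont at 60 hpf, with 1.32% of all genes called higher and 0.135% lower. They were the parvalbumins pvalb1, pvalb2 and pvalb4, TNNC1, MYL11 (ENSDARG00000002589) and TNNI2 (ENSDARG00000029069). The level of pvalb2 was 16600.0, 22133 and 46006 CPM in FA libraries, against 11874, 16082 and 20591 CPM in Cont libraries (log2 fold change 0.78 ± 0.20 (SE), 1.71-fold, adjusted p = 0.0887). The high FA values came from 2 libraries, of 5295573 and 2586967 counts, which had 46010.0 and 39040.0 CPM, while the other 4 FA libraries had 16600.0 to 23000.0 CPM. The same 2 libraries were the highest of the group for pvalb1, with 26350.0 and 23190.0 CPM against 10370.0 to 12940.0 CPM in the other 4 (log2 fold change 0.78 ± 0.19 (SE), 1.72-fold, adjusted p = 0.0887). They had TMM factors of 0.656 and 0.69 and were also low for other members. For the pump atp2a1 they had 463 and 912 CPM, the FA library of 767872 counts had 639 CPM and the other 3 had 2298 to 2752 CPM. For actc1b the same 3 libraries had 3042, 5715 and 3466 CPM and the other 3 had 13680.0 to 17430.0 CPM. Without the 2 libraries of low TMM factor, 0 members were called in FA vs. Cont at 60 hpf and the fold change of pvalb2 was 0.29.

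The fold changes of the other 4 members called in FA vs. Cont at 60 hpf were 0.83 ± 0.21 (adjusted p = 0.0887) for TNNC1, 0.77 ± 0.20 (adjusted p = 0.0887) for MYL11 (ENSDARG00000002589), 0.75 ± 0.20 (adjusted p = 0.0887) for TNNI2 (ENSDARG00000029069) and 0.79 ± 0.22 (adjusted p = 0.0927) for pvalb4. Each of the 6 calls was kept in 7 of the 24 fits that left out 1 library. The count of calls ran from 0 to 13 in these fits, with 13 without the Cont library of 10806851 counts or the FA library of 3075416 counts, and it was 0 in 17 of them. CASQ1 (ENSDARG00000038716) was the 1 member whose FA and Cont libraries did not overlap, with 100.4, 111 and 155 CPM in FA libraries, against 70.4, 87.9 and 92.6 CPM in Cont libraries, where 0.147% of all genes were higher without overlap. It was not called (log2 fold change 0.48 ± 0.15 (SE), 1.4-fold, adjusted p = 0.117). Markers of other tissues moved with this comparison, in which 1.32% of all genes were called higher and 0.135% lower. Of 13 IDs of skin and periderm, all tested, 5 were called higher. The summed level of the 13 was 21038, 27815 and 50802 CPM in FA, against 14968, 18643 and 28228 CPM in Cont. Of 8 blood IDs 2 were called higher, with sums of 11927, 20368 and 37169 CPM in FA, against 9481, 12491 and 20148 CPM in Cont. The groups overlapped for both tissues, and these calls were not refitted without the 2 FA libraries of low TMM factor. The median sum went the other way for 2 tissues, with overlap. The 16 neuronal IDs had 193, 725 and 1089 CPM in FA, against 740, 1044 and 1137 CPM in Cont. The 24 cartilage IDs had 373, 687 and 865 CPM in FA, against 468, 721 and 827 CPM in Cont. The part of these tissues in the result was not tested.

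**Figure D4:**
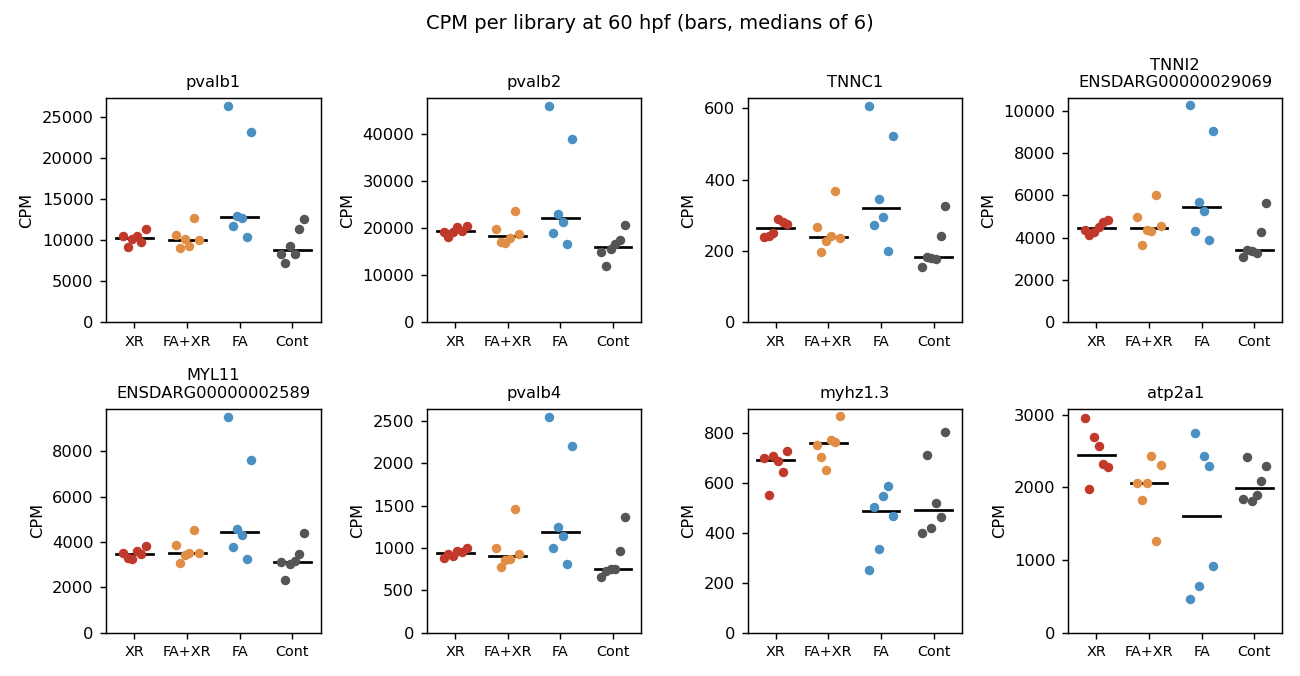
CPM of 8 members in each library at 60 hpf, by group, with the median of 6 as a bar and each axis starting at 0. In FA the 2 points of highest pvalb1 (26350.0 and 23190.0 CPM) stand apart, and 3 points of atp2a1 (463 to 912 CPM) lie well below the other 3.

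At 37 hpf, 1 h after irradiation, 0 of the 48 members tested were called in any comparison. Of all genes 0.25% were called in irradiated vs. unirradiated (0.104% higher and 0.146% lower). XR vs. Cont called 0.104% (0.0556% higher and 0.0487% lower), and FA+XR vs. FA called 0.118% (0.0556% higher and 0.0626% lower). No gene at all was called in FA+XR vs. XR, FA vs. Cont or the interaction (0% each). The members' median log2 fold change was -0.02 in irradiated vs. unirradiated, and 2.08% of them had an unadjusted p below 0.05, against 4.81% of all genes. DESeq2 also called 0 members in that comparison. The slow heavy chain smyhc1 had 227, 251 and 268 CPM in FA libraries, against 129, 179.5 and 225 CPM in Cont libraries and was the 1 member without overlap in FA vs. Cont, where 0.278% of all genes were higher without overlap (log2 fold change 0.41 ± 0.21 (SE), 1.32-fold, adjusted p = 0.981). The smallest p values of the members in irradiated vs. unirradiated were those of mybpc2b at -0.32 ± 0.16 (adjusted p = 0.999) and actn2b at 1.15 ± 0.65 (adjusted p = 0.999).

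At 36 hpf 0 of the 47 members tested were called in any comparison either, and 0.0207% of all genes were called in XR vs. Cont (higher 0.0138%, lower 0.00691%), 0.0138% in FA vs. Cont and 0% each in irradiated vs. unirradiated, FA+XR vs. FA, FA+XR vs. XR and the interaction. With no count minimum, 6 members were called higher in XR vs. Cont and 1 in FA vs. Cont. The share of all genes called under that setting was not counted, so these calls have no background to be read against. The median Cont library of this age was low for many members and for some markers of other tissues, but not all Cont libraries were low. The summed CPM of the members was 26965, 35453 and 56677 in Cont. The lowest library had 32847 CPM in XR, 33672 CPM in FA+XR and 31561 CPM in FA, so low libraries were found in every group. In XR vs. Cont 41 of 47 fold changes were above 0, the median was 0.44, and 55.3% of the members had an unadjusted p below 0.05, against 9.03% of all genes. In FA vs. Cont 41 of 47 were above 0, with a median of 0.49 and 57.4% with an unadjusted p below 0.05, against 8.39% of all genes. Over all genes 49.1% of fold changes were above 0 in XR vs. Cont and 49.4% in FA vs. Cont. Both comparisons share the 6 Cont libraries. Of the 8 blood IDs 0 were called at this age, and their median summed level was 26047 CPM in XR, 28062 CPM in FA+XR and 28264 CPM in FA, against 13498 CPM in Cont, with all groups overlapping. The 13 skin and periderm IDs, of which 0 were called, had medians of 39751, 40128 and 37563 CPM in XR, FA+XR and FA, against 34111 CPM in Cont. The 16 neuronal IDs had 265, 239 and 246 CPM in XR, FA+XR and FA, against 249 CPM in Cont. The part of these tissues in the members' values was not tested. The fast heavy chain myhz1.3, with the smallest p in FA vs. Cont, had 421, 819.7 and 896 CPM in FA libraries, against 279, 322 and 828 CPM in Cont libraries, and these ranges overlapped (log2 fold change 0.74 ± 0.23 (SE), 1.67-fold, adjusted p = 0.443). The slow smyhc1, with the smallest p in XR vs. Cont, had 246, 291 and 334 CPM in XR libraries, against 162, 209.9 and 277 CPM in Cont libraries (log2 fold change 0.44 ± 0.12 (SE), 1.36-fold, adjusted p = 0.203). The 1 member without overlap was the slow tropomyosin tpm3 in XR vs. Cont, with 485, 532 and 585 CPM in XR libraries, against 369, 463 and 476 CPM in Cont libraries, where 0.277% of all genes were higher without overlap. FA+XR and FA, of which only FA+XR was assigned to the X-rays, had a median difference of -0.12 over the members. Whether the X-rays had been given before collection at 36 hpf is not stated in the sources.

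Members also differed between ages, in fits of all 96 libraries. Between 37 and 60 hpf, over all groups, 32 of 51 members were higher and 9 lower at 60 hpf, where 33.2% of all genes were higher and 24.7% lower. The median log2 fold change was 0.64 over the members and 0.12 over all genes. All 51 IDs entered these fits by their mean over the 96 libraries, although only 48 reached the count minimum at 37 hpf. Among the 32 is mybpc1, which did not reach it at that age. Between 60 and 84 hpf 16 members were higher and 16 lower at 84 hpf, where 13.1% of all genes were higher and 14.4% lower. Age and the preparation of the libraries of a time point cannot be told apart. Isoforms of the same protein moved in opposite directions, as shown by the plot of levels by age.

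**Figure D5:**
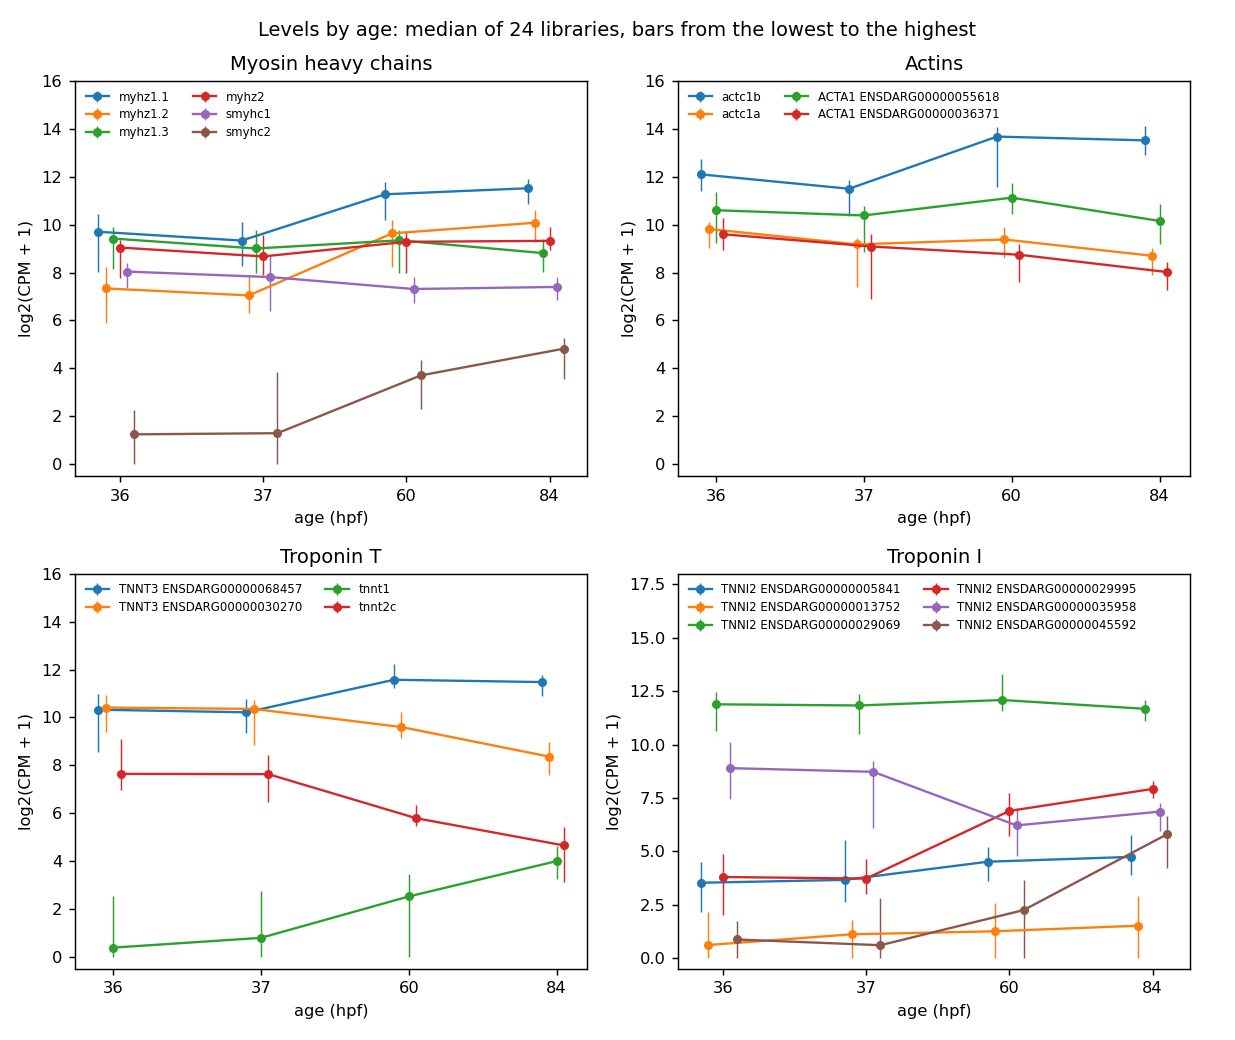
Levels by age as log2(CPM + 1) for 6 myosin heavy chains, 4 actins, 4 troponin T and 6 TNNI2 IDs. Points are medians of 24 libraries and bars run from the lowest to the highest library. TNNI2 (ENSDARG00000029995) and TNNI2 (ENSDARG00000045592) climb with age, whereas TNNI2 (ENSDARG00000035958) and tnnt2c drop after 37 hpf.

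Among the heavy chains, median levels at 37, 60 and 84 hpf were 131, 795 and 1084 CPM for the fast myhz1.2 and 645, 2466 and 2942 CPM for myhz1.1. The change of myhz1.2 was 2.36 ± 0.12 (adjusted p = 1.09e-34) in 60 vs. 37 hpf and 0.54 ± 0.11 (adjusted p = 7.15e-05) in 84 vs. 60 hpf. The slow chains moved apart from each other. The medians of smyhc1 were 224, 158 and 168 CPM, with changes of -0.49 ± 0.08 (adjusted p = 2.70e-07) and 0.03 ± 0.08 (adjusted p = 0.828), whereas those of smyhc2 were 1.45, 12 and 27.3 CPM, with changes of 2.71 ± 0.20 (adjusted p = 3.60e-23) and 1.25 ± 0.15 (adjusted p = 7.77e-12). The binding protein of slow fibres, mybpc1, was listed at a median of 0 CPM at 37 hpf with a highest library of 0.889 CPM, and had medians of 2.02 and 5.9 CPM at 60 and 84 hpf (3.59 ± 0.49 (adjusted p = 6.18e-10) and 1.52 ± 0.29 (adjusted p = 1.63e-05)). Since it was near 0 at 37 hpf, the fitted value of the first change depends on the prior count. At 37 hpf mybpc1 fell short of the count minimum, and it entered the fit of all 96 libraries through the later ages, where it was higher. Its call in 60 vs. 37 hpf is thus not independent of that choice and is given as a description. The fast mybpc2b had medians of 43.6, 40.6 and 17.3 CPM and fell by 1.14 on the log2 scale in 84 vs. 60 hpf (adjusted p = 6.53e-13).

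The 6 TNNI2 IDs, fast troponin I genes, followed different courses. TNNI2 (ENSDARG00000035958) had medians of 422, 73.2 and 115 CPM at 37, 60 and 84 hpf, with changes of -2.44 ± 0.14 (adjusted p = 7.94e-31) and 0.60 ± 0.13 (adjusted p = 0.000227). TNNI2 (ENSDARG00000029995) had 12.2, 118 and 242 CPM (3.03 ± 0.14 (adjusted p = 1.02e-36) and 1.07 ± 0.12 (adjusted p = 4.38e-12)), and its range at 37 hpf, 7.04 to 23.6 CPM, lay below that at 84 hpf, 177 to 313 CPM. TNNI2 (ENSDARG00000045592) had 0.52, 3.76 and 54.6 CPM (2.29 ± 0.29 (adjusted p = 4.77e-11) and 3.80 ± 0.19 (adjusted p = 2.93e-35)), with libraries from 0 to 11.5 CPM at 60 hpf and from 17.8 to 101 CPM at 84 hpf. The TNNI2 ID with the most counts, ENSDARG00000029069, had 3641, 4349 and 3264 CPM and changed by 0.32 and -0.55.

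Troponin T also changed its isoforms. The fast TNNT3 (ENSDARG00000030270) had medians of 1308, 773 and 328 CPM at 37, 60 and 84 hpf (-0.69 ± 0.10 (adjusted p = 1.99e-09) and -1.31 ± 0.10 (adjusted p = 1.22e-21)), while the fast TNNT3 (ENSDARG00000068457) had 1185, 3043 and 2845 CPM (1.36 ± 0.12 (adjusted p = 7.34e-19) and -0.13 ± 0.12 (adjusted p = 0.486)). The troponin T2 gene tnnt2c had 197, 54.3 and 24.1 CPM, with changes of -1.88 ± 0.14 (adjusted p = 1.79e-22) and -1.08 ± 0.14 (adjusted p = 9.33e-10). The slow tnnt1 had 0.732, 4.74 and 15 CPM, with 2.09 ± 0.29 (adjusted p = 9.79e-10) and 1.70 ± 0.22 (adjusted p = 2.03e-10). The fast troponin C gene tnnc2.1 stayed near 0, with medians of 0, 0.369 and 1.27 CPM and 1.40 ± 0.39 (adjusted p = 0.00382) in 84 vs. 60 hpf. Of the actins, actc1b had 2898, 13122 and 11767 CPM with 1.98 ± 0.11 (adjusted p = 1.46e-32) in 60 vs. 37 hpf. ACTA1 (ENSDARG00000055618) had 1337, 2238 and 1140.0 CPM and fell in 84 vs. 60 hpf (-0.98 ± 0.11 (adjusted p = 2.39e-13)), and ACTA1 (ENSDARG00000036371) had 544, 428 and 259 CPM and fell in both steps (-0.42 ± 0.10 (adjusted p = 0.000115) and -0.65 ± 0.10 (adjusted p = 2.39e-08)).

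The parvalbumins divided in the same way, with pvalb1 and pvalb2 higher and pvalb3 lower at 60 hpf. The medians of pvalb2 were 7826, 19019.5 and 20366 CPM at 37, 60 and 84 hpf (1.29 ± 0.12 (adjusted p = 1.95e-17) in 60 vs. 37 hpf), and those of pvalb3 were 86.9, 43.1 and 26.2 CPM (-1.13 ± 0.17 (adjusted p = 2.20e-08) and -0.63 ± 0.18 (adjusted p = 0.00459)). Of the tropomyosins, tpm2 had 327, 202 and 284 CPM (-0.62 ± 0.08 (adjusted p = 1.12e-10) and 0.41 ± 0.08 (adjusted p = 2.50e-05)) and tpma had 3039.8, 5616 and 4541 CPM (0.88 ± 0.09 (adjusted p = 5.09e-16) and -0.33 ± 0.09 (adjusted p = 0.00155)). All 5 called scaffold genes were higher at 60 than at 37 hpf, and neb changed by 0.92 ± 0.12 (adjusted p = 3.47e-10). The pump atp2a1 had 825, 2182 and 1931 CPM (1.18 ± 0.11 (adjusted p = 8.47e-17)), and ckma had 1545, 3792 and 2915 CPM (1.25 ± 0.09 (adjusted p = 2.93e-24) and -0.27 ± 0.09 (adjusted p = 0.016)).

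Within single groups, 84 vs. 60 hpf gave 5 higher and 6 lower in XR (2.64% and 1.68% of all genes), 4 higher and 6 lower in FA+XR (3.05% and 1.78% of all genes), 8 higher and 19 lower in FA (6.18% and 10.5% of all genes) and 6 higher and 6 lower in Cont (4.41% and 2.8% of all genes). The count of FA was 14 in place of 27 without the 2 FA libraries of 60 hpf that stood apart, with 3 higher and 11 lower. In 60 vs. 37 hpf the counts were 26 higher and 8 lower in XR (17.9% and 15.8% of all genes), 27 higher and 7 lower in FA+XR (18.3% and 14.4% of all genes), 29 higher and 9 lower in FA (16.3% and 13.7% of all genes) and 28 higher and 8 lower in Cont (16.5% and 14.3% of all genes). A difference between these counts was not tested.

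Other muscle genes, from lists written by function, were read at 84 hpf in irradiated vs. unirradiated larvae against the same 1.83% and 2.49% of all genes. Of 50 tested genes of the Z-disc, the M-line and sarcomere assembly 7 were called higher and 0 lower, with a median of 0.21. They included ldb3b, a Z-disc adaptor, at 0.30 ± 0.08 (adjusted p = 0.0191) and MYOM2, an M-line cross-linker, at 0.42 ± 0.11 (adjusted p = 0.025). Of 23 genes of excitation-contraction coupling 1 was called higher and 0 lower, with a median of 0.21. It was JPH2, which holds the store membrane next to the T-tubule, at 0.43 ± 0.13 (adjusted p = 0.0658). Of 24 genes of muscle energy metabolism 3 were called higher and 2 lower. The lower ones were CKMT2, a mitochondrial creatine kinase, at -0.84 ± 0.14 (adjusted p = 9.77e-05) and FBP2, the muscle fructose bisphosphatase, at -0.67 ± 0.15 (adjusted p = 0.00345), and the higher ones included the glycolytic enzyme GAPDH at 0.32 ± 0.08 (adjusted p = 0.012). Of 18 myogenic regulators 0 were called at 84 hpf, with a median of 0.08. At 60 hpf 0.686% of all genes were called higher and 0.98% lower. Of 17 myogenic regulators 1 was called at that age, MYOD1, the transcription factor of muscle commitment, at 0.92 ± 0.20 (adjusted p = 0.011). Of the 50 assembly genes 1 was called at 60 hpf, SMYD1, a myosin chaperone partner, at 0.69 ± 0.18 (adjusted p = 0.0417). Of 24 genes of excitation-contraction coupling 1 was called at 60 hpf, atp2a1l, a SERCA pump gene, at 0.63 ± 0.18 (adjusted p = 0.0867).

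Markers of other tissues moved at 60 and 84 hpf as well. In irradiated vs. unirradiated larvae at 60 hpf, 1 of 13 skin and periderm IDs was called lower, anxa1c, an annexin, at -0.79 ± 0.16 (adjusted p = 0.00572), and 1 of 22 tested cartilage IDs was called lower, snorc, at -0.82 ± 0.21 (adjusted p = 0.0434). Of the tested heart muscle, smooth muscle, neuronal and blood IDs 0 were called in that comparison. Split by FA at 60 hpf, anxa1c and snorc were called lower in FA+XR vs. FA and were not called in XR vs. Cont. Their fold changes in FA+XR vs. FA were -1.20 ± 0.23 (adjusted p = 0.00639) and -1.20 ± 0.30 (adjusted p = 0.0607). In FA vs. Cont anxa1c was called higher, at 1.02 ± 0.23 (adjusted p = 0.0832). These calls were not refitted without the 2 FA libraries of low TMM factor. Of all genes 0.686% were called higher and 0.98% lower at 60 hpf, and 1.83% higher and 2.49% lower at 84 hpf. The skin and periderm IDs summed to 19855 to 21767 CPM in XR and 21894 to 38050 CPM in FA+XR, against 21038 to 50802 CPM in FA and 14968 to 28228 CPM in Cont at 60 hpf. At 84 hpf 6 of these 13 IDs were called higher and 0 lower in irradiated larvae. Among the 6 were krt4, a keratin of the surface layer, at 0.52 ± 0.07 (adjusted p = 4.92e-07) and cyt1 at 0.42 ± 0.07 (adjusted p = 4.07e-05). The annexin anxa1c, called lower at 60 hpf, was also among the 6, at 0.48 ± 0.13 (adjusted p = 0.0232). The summed level of the 13 IDs was 13703 to 20656 CPM in XR and 17902 to 22828 CPM in FA+XR, against 12224 to 17338 CPM in FA and 14199 to 16418 CPM in Cont. Of 16 neuronal IDs, all tested, 0 were higher and 4 lower, with SNAP25, a protein of synaptic vesicle fusion, at -0.59 ± 0.09 (adjusted p = 9.85e-06) and tubb5 at -0.38 ± 0.08 (adjusted p = 0.0032). Their summed level was 721 to 861 CPM in XR and 748 to 805 CPM in FA+XR, against 754 to 1076 CPM in FA and 951 to 1003 CPM in Cont. Of the tested heart muscle IDs that are no members 1 of 17 was higher, TNNT2, of smooth muscle 1 of 9 was lower, smtnb, of cartilage 1 of 22 was higher, hapln1a, and 1 lower, snorc, and of blood 0 of 8 were called. The heart muscle IDs summed to 242 to 339.8 CPM in XR and 302 to 405 CPM in FA+XR, against 278 to 321 CPM in FA and 262 to 303 CPM in Cont, and some members, among them actc1a and titin, are also made in the heart. The part of these tissues in the results for the contractile genes was not tested.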

How the data were processed

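RNA of 96 whole zebrafish larvae was sequenced, 1 larva per library and 6 libraries per group and age. The deposited values are estimated counts per Ensembl gene and library, which the authors made by assigning paired-end reads to Ensembl cDNA sequences (GRCz11) with a tool that is not given in the sources used here. Of these values 3 were not whole and were rounded. Reads of near-identical transcripts may have been divided between copies, and antisense overlap was not checked. Of 25907 gene IDs, 23608 had a name in the table used for matching.

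Counts were tested with the quasi-likelihood F test of edgeR 4.0.16 (limma 3.58.1, R 4.3.3) with TMM factors and a mean count minimum of 2.5, and Benjamini-Hochberg adjustment ran over all genes tested. Genes below an adjusted p of 10% were called, a threshold that the authors also used, with another tool (TCC) that was not run here. Treatment contrasts were fitted on the 24 libraries of 1 age with 4 group means. Contrasts of ages were fitted on all 96 libraries with 16 group means. Irradiated vs. unirradiated is the mean of XR and FA+XR minus that of FA and Cont. The exact permutation test was two-sided on log2 CPM with a prior count of 2 (scipy 1.17.1, Python 3.11.15), and figures were drawn with matplotlib 3.10.9. The fit was tested on simulated data with known changes. The count columns are headed only by numbers. Their groups were read by position from the age and treatment that the authors list for each library, and the total counts listed there matched. Larvae of a group shared 1 well, so p-values measure only the spread between these larvae.

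Values are given for called members (at least the 10 of smallest adjusted p per treatment contrast, or all where fewer were called). They are also given for members of smallest p in some, not all, of the contrasts without a call. The member of highest CPM in each role and the 5 largest and 5 smallest changes between ages are given as well. Of the other lists up to 2 called genes per contrast are named. The members, roles and lists were chosen with earlier results of these data known. Alternatives were DESeq2 1.42.0, RLE factors, no count minimum, only the libraries compared, a threshold of 5%, leaving out low-depth libraries and leaving out libraries singly. Leaving out the 2 FA libraries of 60 hpf with the lowest TMM factors was added after seeing the data.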

Additional observations from a re-analysis of the deposited data

Results flagged for a closer look

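The XR libraries of 36 hpf held 1 library that stood apart in the summed CPM of the contractile genes. It had 32846.8 CPM, against 57539.2 CPM in the next lowest XR library, a median of 64074.1 CPM and a highest value of 70031.9 CPM. The gap to the next library was 0.664 of the range of the group, above the limit that Dixon's test sets for 6 samples at the 95% level. The library held 2800805 counts and was the lowest of its group for 35 of the 47 members tested at this age. Sums of a similar size were found in the other groups of 36 hpf. Cont libraries had 26965, 30109 and 30598 CPM, an FA library had 31561 CPM, and FA+XR libraries had 33672 and 33786 CPM. The value thus stood apart within XR but not among all libraries of this age. The sums of 16 groups were screened in this way, and chance alone passes this limit in about 5% of groups.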

How the results depend on the processing

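The 24 calls in irradiated vs. unirradiated larvae at 84 hpf stayed within 1.5 times under every alternative run, among them DESeq2 with 28. Other counts moved, and where they did the cause was not tested. Under the alternatives only calls of members were counted, so no share of all genes stands beside the counts given here. In XR vs. Cont at 84 hpf the 10 calls became 22 without low-depth libraries, and leaving out libraries singly gave 6 to 16. In FA+XR vs. FA at 84 hpf the 8 calls became 15 with DESeq2 and 13 with RLE factors, and 5 to 15 when libraries were left out singly. At 60 hpf, irradiated vs. unirradiated gave 3 calls in place of 5 without low-depth libraries and 3 to 6 when libraries were left out singly, with 3 without the FA+XR library of 16470291 counts. In XR vs. Cont at 60 hpf the 0 calls became 1 with DESeq2, with only the 12 libraries compared and without the 2 FA libraries of low TMM factor, and 0 to 1 when libraries were left out singly, with 1 without the XR library of 4318528, the FA library of 5295573 or the Cont library of 10806851 counts. In FA+XR vs. FA at 60 hpf the 2 calls became 6 with DESeq2, 4 with RLE factors, 1 with no count minimum and 0 at 5%, with only the 12 libraries and without the 2 FA libraries. Leaving out libraries singly gave 0 to 10 there, with 0 without the FA+XR library of 10842760, 3565072 or 16470291 counts or the FA library of 5295573 or 2586967 counts, 1 in 12 of the fits, 4 without the FA+XR library of 3559535 counts, and 6 and 10 without the FA library of 5141929 and of 3075416 counts. The 6 calls in FA vs. Cont at 60 hpf became 12 with DESeq2 and 10 with RLE factors. They became 0 at 5%, with only the 12 libraries, without low-depth libraries and without the 2 FA libraries, and 0 to 13 when libraries were left out singly. With no count minimum, 6 members were called in XR vs. Cont and 1 in FA vs. Cont at 36 hpf, where the main count was 0. In 84 vs. 60 hpf, the 11 calls of XR became 17 with only the 24 XR libraries, and the 27 of FA became 14 without the 2 FA libraries.

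Scaled by total counts in place of TMM factors, the median summed CPM was 48251.2 in XR at 36 hpf and 42796.7 in FA at 37 hpf. On that scale it was 117002 in XR, 108664 in FA+XR and 99101.7 in Cont at 60 hpf, and 124840 in XR, 118996 in FA+XR, 102262 in FA and 105076 in Cont at 84 hpf. The fold changes of named members were refitted under each alternative and with each library left out. Over these refits a called value reversed in 0, a call was lost in 226 and gained in 7 (of ACTA1 (ENSDARG00000055618) in XR vs. Cont at 60 hpf and actn3a in XR vs. Cont at 36 hpf), and neither happened in 2209. No paired analysis was possible because no column header of the count matrix gives a replicate. The 13 low-depth libraries limit members of few counts, such as tnnc2.1 and actn2b.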
